A study of Mus musculus with 2 samples.

Results

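The nuclear receptor superfamily is represented here by 47 listed mouse genes out of 21367 genes that the arrays name. A probe was counted for a member when its target accession was a RefSeq transcript of that gene, and every member had at least 1 such probe, 71 probes in all. Expression was measured in 1 RNA sample of retina labelled Samd7 KO and 1 labelled wild type, both from mice at postnatal day 12, each hybridised to 1 single-colour Agilent array. Samd7 is a photoreceptor gene whose product carries a sterile alpha motif, and the series compares the retinal expression profile with and without it. Neither strain, sex, the number of animals behind each RNA sample nor the deleted part of Samd7 is stated in the labels. With 1 array per group there is no spread between animals, so no p-value or standard error is given, and every difference compares these 2 arrays.

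Nuclear receptors are transcription factors, many of which are switched by a small lipid-soluble ligand such as thyroid hormone, retinoic acid, a steroid or a sterol, while others, the orphan receptors, have no established hormone. Most bind DNA elements built on the hexamer AGGTCA, alone, as homodimers, or as heterodimers with a retinoid X receptor, and recruit corepressors or coactivators. In the retina several members set photoreceptor identity: Nr2e3 with the rod factor Nrl, Rorb upstream of it, and Thrb and Rxrg, which together restrain the short-wavelength opsin in cones.

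Values are processed signals of the scanner software, in linear units. Differences are on the log2 scale, the knockout-labelled array minus the wild-type-labelled array, after each array was set to its own 75th percentile (554 units on the knockout-labelled array and 574 on the wild-type-labelled array). The spread of repeated spots of 1 probe gave a technical SD of such a difference, 0.05 for probes at or above the 75th percentile, 0.09 down to 2 log2 units below it, 0.19 from 2 to 4 units below it and 0.37 for dimmer ones. It covers noise within an array, not between animals. A member was called different when it was at least 2-fold apart.

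The probe of the targeted gene was higher on the array labelled knockout. Samd7 read 48967 on that array and 14769 on the wild-type-labelled array, a difference of 1.78. Where this probe lies relative to the deletion is not known here, so it may check nothing, and the arrays are called by their labels throughout. Every marker fixed for rods, cones, bipolar, amacrine, horizontal and ganglion cells and Müller glia was above background on both arrays, so the defining cell types of the labelled tissue were all represented. Among neighbouring tissues, all 7 lens markers were above background on the knockout-labelled array and 5 on the wild-type-labelled array, and 5 of the 7 were at least 2-fold higher, and their summed scaled signal was 16.3 on the knockout-labelled array and 3.52 on the wild-type-labelled array. The 6 pigment epithelium markers summed to 6.16 on the knockout-labelled array and 9.50 on the wild-type-labelled array. The part of these tissues in the values below was not tested.

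Most of the family was above background in the retina at this age, and most members differed little between the arrays. Of the 47 members, 41 were well above background on at least 1 array, 39 on the knockout-labelled array and 41 on the wild-type-labelled array, which is 87.2% of members beside 74.6% of all named genes. Only 4 of the 41 were at least 2-fold apart (9.76%), beside 2.95% of the 15942 named genes above background. Rxrg and Nr6a1 were higher on the knockout-labelled array, where 1.58% of all named genes were at least 2-fold higher. Nr5a1 and Esrrb were lower, where 1.37% of all named genes were at least 2-fold lower. All 4 were above background on both arrays. In that set they are 4 of 39 members beside 1.66% of 15258 named genes, of which 1.05% were at least 2-fold higher and 0.616% at least 2-fold lower. At 1.5-fold, 3 members were higher beside 2.97% of named genes, 4 were lower beside 3.21%, and so 7 were apart beside 6.17%. The additions were Nr3c2 on the higher side and Nr1i3 and Hnf4a on the lower side. Nr1i3 and Hnf4a were above background on the wild-type-labelled array only, so they could enter on the lower side alone. Among the 39 members measured on both arrays, 3 were higher and 2 lower at 1.5-fold. The share of named genes in that set was not counted at 1.5-fold. At 4-fold, Rxrg was left on the higher side beside 0.496% of named genes and Nr5a1 on the lower side beside 0.364%, together 0.859%.

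Most of the other members differed little. The median difference was 0.001 over the 41 members and -0.02 over all named genes above background. Of the 39 members measured on both arrays, 21 were higher and 18 lower on the knockout-labelled array, and 22 lay within 0.1 of 0, which is 56.4% beside 55.9% of named genes. Wider windows held a smaller share of members than of named genes: 76.9% of members beside 84.0% of named genes lay within 0.25 of 0, and 87.2% beside 94.7% within 0.5. Of the 39, 14 lay over 2 technical SDs from 0, 4 higher and 10 lower, which is 35.9% beside 27.6% of named genes. A gap separated the 4 called members from the other members measured on both arrays. The smallest difference among the 4 was 1.09 in size, that of Esrrb, and the next was 0.72, that of Nr3c2. Hnf4a and Nr1i3, above background on the wild-type-labelled array only, had bounds of -0.88 and -0.78, inside this gap. Without its bound Hnf4a was at -1.05. The plot of signals by member shows that Rxrg, Nr6a1, Nr5a1 and Esrrb had the widest distances between arrays among members measured on both.

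**Figure D1:**
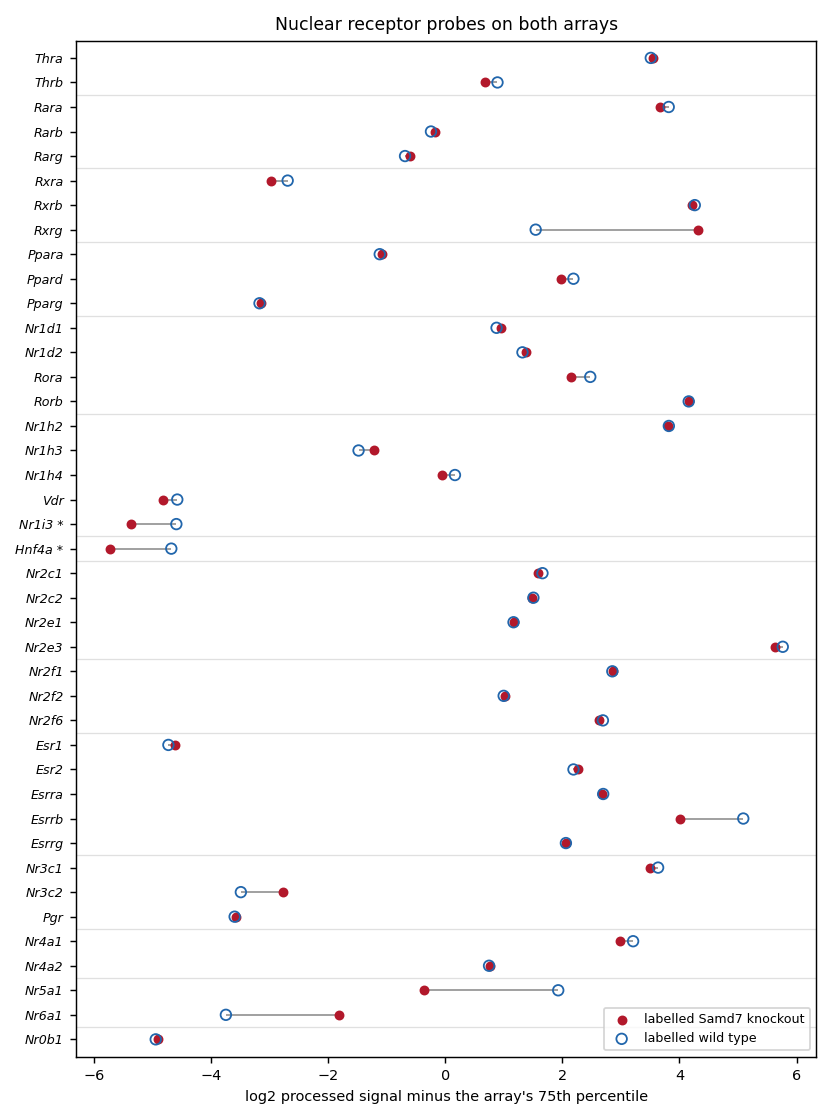
Log2 processed signal relative to each array's 75th percentile for the 41 members above background on at least 1 array, with filled points for the array labelled Samd7 knockout and open circles for the array labelled wild type, grouped by subfamily. An asterisk marks the 2 members above background on the wild-type-labelled array only; probes differ in brightness, so levels compare between arrays and not between genes.

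Among the retinoid X receptors, Rxrg was the member with the highest difference of the family. Rxrg encodes RXR gamma, a heterodimer partner that cones make and that acts with thyroid hormone receptor beta on opsin choice. Its brighter probe read 10979.8 on the knockout-labelled array and 1675 on the wild-type-labelled array, a difference of 2.77 or 6.80-fold. The other Rxrg probe, aimed at the same transcript, read 4993 on the knockout-labelled array and 2211 on the wild-type-labelled array, a difference of 1.23 or 2.34-fold. Both probes were thus higher on the knockout-labelled array by many times the technical SD of 0.05, but they differed from each other by 1.54, and their mean gave 3.99-fold. Of 15258 named genes on both arrays, 19, Rxrg included, differed at least this far upward.

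The other retinoid X receptors were not higher. Rxrb, the partner made in most tissues, read 10254 on the knockout-labelled array and 11018 on the wild-type-labelled array, a difference of -0.05. Rxra, which serves many heterodimers in liver and skin, read 70.1 on the knockout-labelled array and 88.8 on the wild-type-labelled array at its brighter probe, a difference of -0.29 with a technical SD of 0.19. Its dimmer probe was at -0.57. Neither Rxra nor Rxrb reached 2-fold.

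Some cone markers were higher beside Rxrg and others were not. All 9 were above background on both arrays, and 4 of the 9, Cnga3, Gngt2, Cngb3 and Opn1sw, were at least 2-fold higher. Their summed scaled signal was 354 on the knockout-labelled array and 117 on the wild-type-labelled array, a gap carried mostly by the bright probe of Gngt2, a cone transducin subunit gene, at 272 on the knockout-labelled array and 49.7 on the wild-type-labelled array. The other 8 markers summed to 82.3 on the knockout-labelled array and 67.4 on the wild-type-labelled array. The cone channel subunit Cnga3 read 4378 on the knockout-labelled array and 605 on the wild-type-labelled array, a difference of 2.91. The short-wavelength opsin gene Opn1sw, which Rxrg and Thrb together restrain, read 951 on the knockout-labelled array and 231 on the wild-type-labelled array. Its difference was 2.09, so it was higher together with Rxrg. By contrast, the cone transducin gene Gnat2 was at 0.04 and the medium-wavelength opsin gene Opn1mw at -0.17. In bulk RNA, more cells of a type and more RNA per cell cannot be told apart, and the part of cone content in the Rxrg value was not tested.

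RefSeq lists 2 start sites for Rxrg, and their promoters (250 bases before to 50 after the start, assembly GRCm38.p6) are printed because this gene carried the highest difference and its probes disagreed in size. Start site 1 lies at chr1:167598112-167598411 and start site 2 at chr1:167618015-167618314, both on the plus strand. Capitals mark matches to AGGTCA on either strand, to the extended form TCAAGGTCA that contains it and that monomeric receptors of the ERR and NR5A type prefer, and to TAATCC, the core bound by the photoreceptor factor Crx.
Rxrg start site 1: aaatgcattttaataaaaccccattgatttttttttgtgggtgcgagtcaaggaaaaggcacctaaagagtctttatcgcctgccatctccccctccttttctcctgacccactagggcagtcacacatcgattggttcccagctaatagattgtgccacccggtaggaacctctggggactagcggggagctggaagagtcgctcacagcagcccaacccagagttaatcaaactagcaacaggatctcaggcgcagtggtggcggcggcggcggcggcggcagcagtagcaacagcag
Rxrg start site 2: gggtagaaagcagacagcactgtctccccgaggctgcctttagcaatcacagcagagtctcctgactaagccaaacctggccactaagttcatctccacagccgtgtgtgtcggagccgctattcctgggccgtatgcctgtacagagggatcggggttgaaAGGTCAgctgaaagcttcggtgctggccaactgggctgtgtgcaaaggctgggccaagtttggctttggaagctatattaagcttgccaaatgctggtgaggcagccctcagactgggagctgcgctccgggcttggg
Start site 1 held none of these motifs, and start site 2 held 1 AGGTCA that begins 88 bases before the start. AGGTCA occurs in 16.3% of the 32851 promoters of this length and in 11 of the 58 promoters of members above background, which cover 38 genes. A match of letters describes the sequence and is not a measured binding site.

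The thyroid hormone receptors, the partners of Rxrg, differed slightly or not at all. Thrb, which cones need for medium-wavelength opsin, read 891 on the knockout-labelled array and 1065 on the wild-type-labelled array, a difference of -0.21. Its other probe gave -0.24, so both lay on the lower side by more than the technical SD, far short of 2-fold. Thra, the more widely made thyroid hormone receptor, read 6464 on the knockout-labelled array and 6543 on the wild-type-labelled array, a difference of 0.04 with -0.06 in its other probe. Its 2 probes straddled 0.

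The retinoic acid receptors were close to level. Rara read 7050.2 on the knockout-labelled array and 8090.3 on the wild-type-labelled array, a difference of -0.15. Rarb, itself a target gene of retinoic acid signalling, read 489 on the knockout-labelled array and 485 on the wild-type-labelled array, a difference of 0.07. Rarg, best known from skin, read 364 on the knockout-labelled array and 357 on the wild-type-labelled array, a difference of 0.08. The values of Rarb and Rarg were within their technical SD of 0.09.

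Esrrb was the only photoreceptor orphan receptor past 2-fold. It encodes oestrogen-related receptor beta, an orphan receptor made in rods that supports their energy metabolism. Its single probe read 8869 on the knockout-labelled array and 19562 on the wild-type-labelled array, a difference of -1.09, which is 2.13-fold lower, with a technical SD of 0.05. Its close relatives were level. Esrrg, which shares DNA targets with it, read 2321 on the knockout-labelled array and 2395 on the wild-type-labelled array, a difference of 0.01 with 0.07 in its other probe. Esrra, the family member most widely tied to mitochondrial genes, read 3546 on the knockout-labelled array and 3724 on the wild-type-labelled array, a difference of -0.02. RefSeq gives 2 start sites for Esrrb, and neither promoter held any of the 3 motifs.

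Of the 6 rod markers, all above background on both arrays, 5 were lower on the knockout-labelled array. Their summed scaled signal was 706 on the knockout-labelled array and 874 on the wild-type-labelled array, and 675 against 737 without Gnat1. The rod transducin gene Gnat1 was the only one at least 2-fold lower, reading 17412 on the knockout-labelled array and 79039 on the wild-type-labelled array, a difference of -2.13. The other 5 lay between -0.30 and 0.08. Esrrb, at -1.09, lay between Gnat1 and those 5. The part of rod content in the Esrrb value was not tested.

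Nr2e3 and Rorb, the receptors that act with Nrl in rod specification, stayed close to level. Nr2e3, whose loss in mice turns would-be rods toward cones, read 27585 on the knockout-labelled array and 31219 on the wild-type-labelled array, a difference of -0.13. Rorb, needed in mice for rods to form, read 9889.5 on the knockout-labelled array and 10252 on the wild-type-labelled array, a difference of 0.001, and its other probe gave -0.04. The 6 rod markers ran from -2.13 to 0.08, with 5 lower and 1 higher. The part of rod content in the Nr2e3 value was not tested. Rora, a relative of Rorb also made in cones and inner neurons, read 2460.2 on the knockout-labelled array and 3196 on the wild-type-labelled array. Its difference was -0.32, against -0.07 in its other, dimmer probe.

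**Figure D2:**
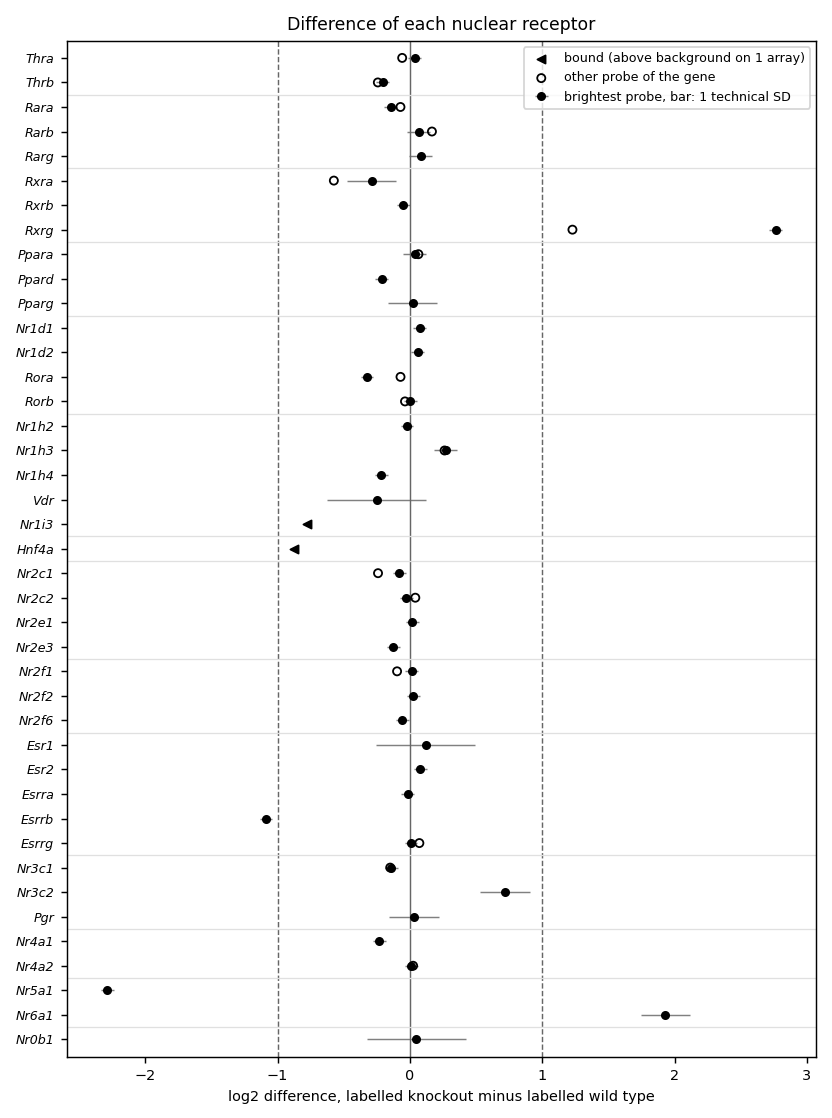
Log2 difference of each member above background on at least 1 array, labelled knockout minus labelled wild type, with a filled point and 1 technical SD for the brightest probe, open circles for other probes above background on both arrays, and triangles for bounds. Dashed lines mark 2-fold; Rxrg (2.77) and Nr6a1 (1.93) lie above it, Nr5a1 (-2.29) and Esrrb (-1.09) below it.

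The lowest member was Nr5a1 and the other high member Nr6a1. Nr5a1 encodes steroidogenic factor 1, which drives steroid hormone genes in adrenal gland and gonad. Its single probe read 432 on the knockout-labelled array and 2187 on the wild-type-labelled array, a difference of -2.29, or 4.88-fold lower. Of 15258 named genes on both arrays, 7, Nr5a1 included, differed at least this far downward. Nr6a1 encodes germ cell nuclear factor, a repressor of pluripotency and germ line genes. Its single probe read 157 on the knockout-labelled array and 42.7 on the wild-type-labelled array, a difference of 1.93, or 3.81-fold higher, with a technical SD of 0.19. With normexp background correction, which adds an offset that shrinks differences between dim signals, Nr6a1 was 2.11-fold higher and Nr5a1 4.33-fold lower.

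Nr5a1 and Nr6a1 are next to each other on mouse chromosome 2, with no other protein-coding gene between them in the RefSeq table, and they differed in opposite directions. Thra and Nr1d1 on chromosome 11 and Rarb and Thrb on chromosome 14 are the other neighbouring pairs of members, and in those pairs all 4 genes lay within 0.25 of 0. The promoters of the 2 listed start sites of Nr6a1 are printed because they belong to the other member that was higher. Both are on the minus strand of GRCm38.p6, start site 1 at chr2:38926412-38926711 and start site 2 at chr2:38784466-38784765, with capitals as above and a minus-strand AGGTCA reading TGACCT.
Nr6a1 start site 1: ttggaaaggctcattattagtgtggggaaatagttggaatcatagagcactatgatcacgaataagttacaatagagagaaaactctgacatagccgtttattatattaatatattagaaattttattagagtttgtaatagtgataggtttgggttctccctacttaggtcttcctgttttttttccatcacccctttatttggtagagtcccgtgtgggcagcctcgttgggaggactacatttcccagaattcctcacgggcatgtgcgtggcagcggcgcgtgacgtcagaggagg
Nr6a1 start site 2: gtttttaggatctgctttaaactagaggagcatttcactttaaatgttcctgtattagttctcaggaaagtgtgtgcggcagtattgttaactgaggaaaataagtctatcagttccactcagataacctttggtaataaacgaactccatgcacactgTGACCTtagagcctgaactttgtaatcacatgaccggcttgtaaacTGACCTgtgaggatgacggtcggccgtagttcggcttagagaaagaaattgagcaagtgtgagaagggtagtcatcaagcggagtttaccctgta
Start site 2 held 2 minus-strand AGGTCA matches, which begin 91 and 45 bases before the start, and start site 1 held none. Over the 6 promoters of Rxrg, Esrrb and Nr6a1 together, 2 held AGGTCA, and none held TCAAGGTCA or TAATCC, which occur in 0.423% and 7.06% of all promoters. No promoter entry of Nr5a1 was used.

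Genes of steroid synthesis, the best known targets of Nr5a1, did not differ in one direction. All 4 steroidogenic markers were above background on at least 1 array, with a summed scaled signal of 1.64 on the knockout-labelled array and 1.51 on the wild-type-labelled array, most of it from Cyp17a1. Star, which moves cholesterol into mitochondria, read 66.6 on the knockout-labelled array, where it was above background, and 15.4 on the wild-type-labelled array, where it was not, and so was at least 4.50-fold higher, or at least 2.65-fold with the mean over its probes. Cyp11a1, the side-chain cleavage enzyme, was at least 3.50-fold lower, reading 12.5 on the knockout-labelled array, where it was not well above background, and 45.4 on the wild-type-labelled array. Both bounds fell under 2-fold with normexp. Cyp17a1, measured on both arrays at 813 on the knockout-labelled array and 782 on the wild-type-labelled array, was at 0.11, and Hsd3b1, also on both arrays, at -0.48.

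Among the steroid hormone receptors, only the mineralocorticoid receptor gene came near the threshold. Nr3c2, which encodes it, read 81.0 on the knockout-labelled array and 51.0 on the wild-type-labelled array, a difference of 0.72 or 1.65-fold, with a technical SD of 0.19. With normexp its difference was 0.38. Nr3c1, the glucocorticoid receptor gene, read 6241 on the knockout-labelled array and 7135 on the wild-type-labelled array, a difference of -0.14, with -0.15 in its other probe. Esr2, oestrogen receptor beta, read 2667 on the knockout-labelled array and 2620.1 on the wild-type-labelled array, a difference of 0.08.

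Esr1 and Pgr were dim, and level at the only probe of each that was above background. The Esr1 probe with 10 spots, for oestrogen receptor alpha, ranged from 18.6 to 30.2 on the knockout-labelled array, with its median at 22.0, and from 15.3 to 27.4 on the wild-type-labelled array, with its median at 21.9. Its difference was 0.12 ± 0.35 (SD over 10 spots of these 2 arrays), with 6 spots higher and 4 lower. Pgr, the progesterone receptor gene, read 46.7 on the knockout-labelled array and 47.4 on the wild-type-labelled array, a difference of 0.03. The other probes of Esr1 and Pgr were above background on neither array. With the mean over all probes of a gene, these included, the differences were -0.78 for Esr1 and -0.58 for Pgr. The ranges of the Esr1 spots overlapped between the arrays.

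The lipid sensors of the PPAR group showed no member near 2-fold. Ppard, made in most tissues, read 2176 on the knockout-labelled array and 2618 on the wild-type-labelled array, a difference of -0.21. Ppara, a regulator of fatty acid oxidation, read 261 on the knockout-labelled array and 264 on the wild-type-labelled array, a difference of 0.04. Pparg, the adipocyte receptor, had 10 spots from 56.3 to 69.3 on the knockout-labelled array, with the median at 61.1, and from 49.3 to 88.7 on the wild-type-labelled array, with the median at 65.1. Its difference of 0.02 ± 0.25 (SD over 10 spots) was smaller than the spread of the spots, which overlapped between arrays.

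The clock repressors of the REV-ERB type were level. Nr1d1, REV-ERB alpha, read 1069.5 on the knockout-labelled array and 1054 on the wild-type-labelled array, a difference of 0.07. Nr1d2, REV-ERB beta, read 1439 on the knockout-labelled array and 1432 on the wild-type-labelled array, a difference of 0.06. Nr1d1 differed by less than 2 technical SDs.

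Sterol and bile acid receptors differed modestly and in both directions. Nr1h3, the oxysterol receptor LXR alpha, read 239 on the knockout-labelled array and 206 on the wild-type-labelled array, a difference of 0.27, with 0.26 in its other probe. Nr1h2, LXR beta, read 7689.97 on the knockout-labelled array and 8102 on the wild-type-labelled array, a difference of -0.02. Nr1h4, the bile acid receptor FXR, read 534 on the knockout-labelled array and 644 on the wild-type-labelled array, a difference of -0.22. Vdr, the vitamin D receptor gene, was dim, at 19.5 on the knockout-labelled array and 24.0 on the wild-type-labelled array, and its difference of -0.25 was within its technical SD of 0.37.

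Nr1i3 and Hnf4a, receptors best known from liver, were above background on the wild-type-labelled array only. Nr1i3, the xenobiotic sensor CAR, read 13.3 on the knockout-labelled array and 23.8 on the wild-type-labelled array, at least 1.72-fold lower, but its other probe was above background on neither array and averaging the 2 left no bound. Hnf4a, a master regulator of hepatocytes, read 10.4 on the knockout-labelled array and 22.4 on the wild-type-labelled array, at least 1.84-fold lower. With normexp their differences were -0.15 for Nr1i3 and -0.13 for Hnf4a. Of the 4 hepatic markers, Alb, Apoa1 and Serpina1a were above background on neither array and Apoa2 was at 0.02.

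The orphan receptors of progenitors and inner neurons were among the most even members at their brightest probes. Nr2e1, TLX, which keeps neural progenitors dividing, read 1256 on the knockout-labelled array and 1288 on the wild-type-labelled array, a difference of 0.02. Nr2f1, a COUP factor that patterns the retina, read 4038 on the knockout-labelled array and 4149.8 on the wild-type-labelled array, a difference of 0.01. Its other probe gave -0.10. Nr2f2, the other COUP factor that patterns opsin expression in mouse cones, read 1125 on the knockout-labelled array and 1146 on the wild-type-labelled array, a difference of 0.03. At their brightest probes all 3 were within the technical SD of 0.05, which the other Nr2f1 probe was not. Their relative Nr2f6, at 3435 on the knockout-labelled array and 3712 on the wild-type-labelled array, was at -0.06.

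The testicular receptors Nr2c1 and Nr2c2, repressors that bind direct repeats of AGGTCA, differed little. Nr2c1 read 1653 on the knockout-labelled array and 1815 on the wild-type-labelled array, a difference of -0.08. Its other probe read 413 on the knockout-labelled array and 506 on the wild-type-labelled array, a difference of -0.24, and the mean over both probes was -0.16. Nr2c2 read 1540.5 on the knockout-labelled array and 1629.8 on the wild-type-labelled array, a difference of -0.03. The other probe of Nr2c2 gave 0.04, on the opposite side of 0.

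The NR4A receptors are immediate early genes, and neither of the members above background was 2-fold apart. Nr4a1 read 4357 on the knockout-labelled array and 5307 on the wild-type-labelled array, a difference of -0.23. Nr4a2, needed for dopaminergic neurons, read 936 on the knockout-labelled array and 964 on the wild-type-labelled array, a difference of 0.01. Of the 5 other immediate early genes fixed as markers, Egr1 was at 0.70, Fos at 0.48 and Ier2 at 0.17, while Junb was at -0.04 and Arc at -0.05. None of the 5 was 2-fold apart. Their summed scaled signal was 5.77 on the knockout-labelled array and 3.78 on the wild-type-labelled array, and 1.19 against 0.958 without Egr1. Whether this bears on Nr4a1 was not tested.

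Of the receptors that lack a DNA-binding domain, Nr0b1, DAX1, was near the limit of detection. Its 8 unflagged spots ranged from 14.3 to 26.4 on the knockout-labelled array and from 15.0 to 22.6 on the wild-type-labelled array, and the difference was 0.05 ± 0.46 (SD over 8 spots). The arrays overlapped fully. Nr0b2, the bile acid-induced repressor SHP, was above background on neither array, and the same held for Nr1h5, Nr1i2, Hnf4g, Nr4a3 and Nr5a2.

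**Figure D3:**
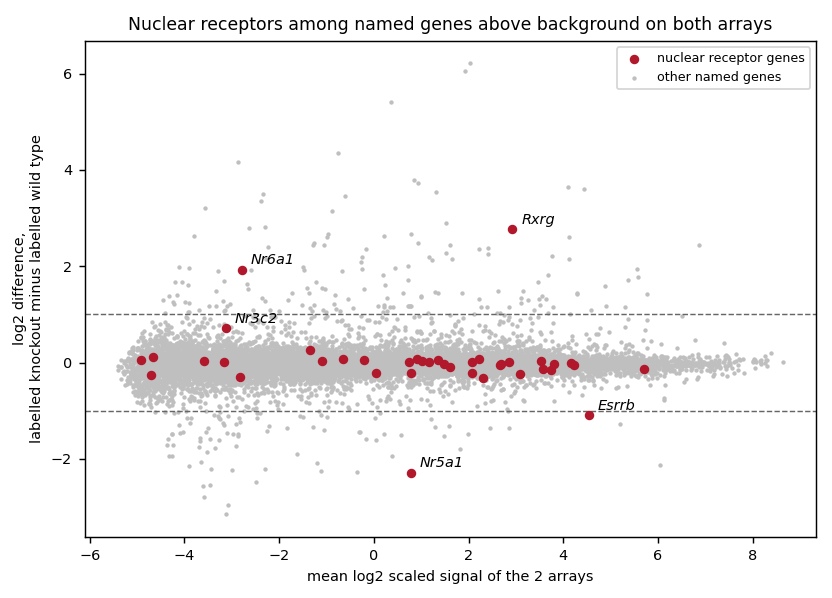
Log2 difference, labelled knockout minus labelled wild type, against the mean log2 scaled signal of the 2 arrays for 15258 named genes above background on both (grey) and the 39 nuclear receptor members among them (red); dashed lines mark 2-fold. Rxrg, Nr6a1, Nr5a1 and Esrrb lie outside the lines and the other 35 members between them.

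Where a member had several probes, the differences were mostly close. Of 16 members for which 2 or more probes were measured on both arrays, 13 had probes within 0.25 of each other, and the median range was 0.07 beside 0.10 for the 4131 named genes with such probes. Rxrg had the widest range at 1.54, followed by Rxra at 0.29 and Rora at 0.25. The probes of 4 members, Thra, Nr2c2, Nr2f1 and Rorb, lay on both sides of 0, each with a brightest-probe difference under 0.05 in size. Nr5a1, Nr6a1 and Esrrb had 1 probe each, so no second probe checks them.

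Among the coregulators through which nuclear receptors act, all 26 were above background on both arrays. None of the 26 was 2-fold apart, beside 1.66% of named genes on both arrays. Their median was -0.02, as it was over all named genes. Hr, hairless, a corepressor of thyroid hormone receptors and also one of their target genes, was the highest, at 5704 on the knockout-labelled array and 4456 on the wild-type-labelled array, a difference of 0.41. Ncoa7 followed at 0.13. The coactivator gene Ppargc1b, which serves oestrogen-related receptors in energy metabolism, was the lowest, at 397 on the knockout-labelled array and 504 on the wild-type-labelled array, a difference of -0.29. Nrip1, a ligand-dependent corepressor, was next at -0.23.

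Genes that make, carry or break down the ligands had 1 member higher and 1 lower past 2-fold. These were Star and Cyp11a1, already described, out of 22 of 29 genes above background, whose median was -0.09. Of all named genes above background, 2.95% were 2-fold apart, 1.58% higher and 1.37% lower. In the retinoid group, 10 of 12 were above background and 0 were 2-fold apart. Rdh10, a retinol dehydrogenase, was the highest there at 0.24, and the retinol transporter gene Stra6 the lowest at -0.40. In the thyroid hormone group the carrier gene Ttr, which pigment epithelium secretes in the eye, read 2599 on the knockout-labelled array and 3897 on the wild-type-labelled array, a difference of -0.53. Ttr and Stra6, which is also made in pigment epithelium, were both lower. So were 14 of the 20 ligand supply genes measured on both arrays, beside 6 higher. The median of the pigment epithelium markers was -0.42. Of those 6 markers 5 were lower and 1, Best1, was higher at 0.15. The part of that tissue was not tested. The hormone transporter gene Slco1c1 was the next highest after Rdh10 among those measured on both arrays, at 0.18.

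Of 39 target genes commonly used as readouts of receptor activity, 34 were above background on both arrays, with a median of -0.02. Of these, 1 was 2-fold apart, near the 1.66% of all named genes. That gene was Fabp4, a fatty acid binding protein induced by Pparg in adipocytes and made by endothelium, at 72.9 on the knockout-labelled array and 156 on the wild-type-labelled array. Its difference was -1.05, or 1.55-fold lower with normexp, and the 5 endothelial markers were between -0.29 and 0.01. Targets of the glucocorticoid receptor ranged from -0.12 to 0.37, with Sgk1, a salt-regulating kinase, the highest at 2088 on the knockout-labelled array and 1676 on the wild-type-labelled array. Targets of the oestrogen-related receptors lay between -0.08 and 0.12, and those of LXR between -0.15 and 0.23. Targets of the thyroid hormone receptors lay between -0.12 and 0.41, and those of the retinoic acid receptors between -0.40 and 0.11. The median was -0.05 for the PPAR targets and -0.13 for the REV-ERB and ROR targets. Over all named genes above background on both arrays it was -0.02. The target list also holds the members Rarb and Esrra. The other retinoic acid receptor targets above background, Cyp26a1, Cyp26b1, Dhrs3 and Stra6, are in the ligand supply list too. Their range is therefore not a separate readout.

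**Figure D4:**
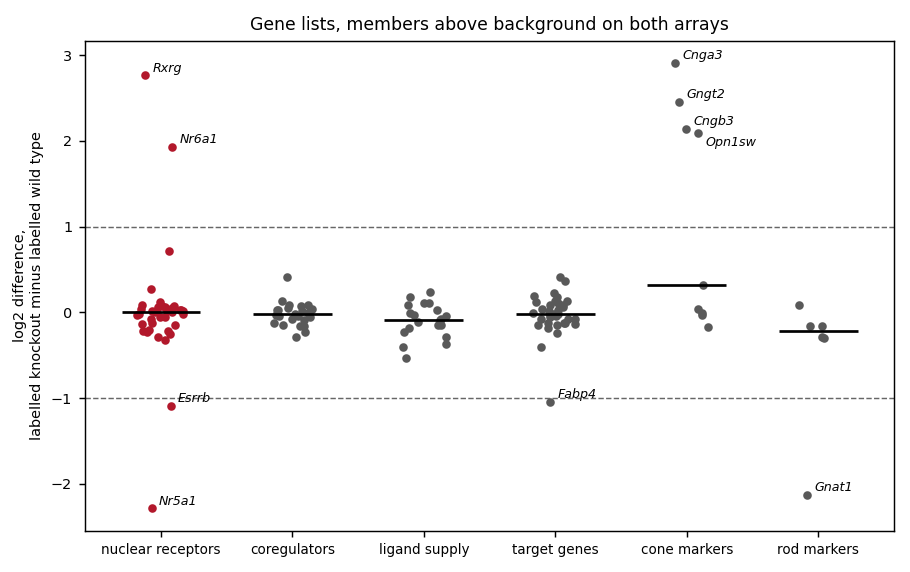
Log2 difference, labelled knockout minus labelled wild type, of single genes above background on both arrays in the nuclear receptor, coregulator, ligand supply and target lists and among cone and rod markers; the bar is the median and dashed lines mark 2-fold. Named points lie outside 2-fold, 4 of them nuclear receptors, 1 a target gene (Fabp4), 4 cone markers and 1 a rod marker (Gnat1).

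The calls of the 4 members were the same under each way of scaling. Some ways, such as no scaling and the authors' value table, shift every difference by nearly the same small amount. Those could hardly have changed a call. Over 7 other ways of processing, the Rxrg difference ran from 2.0 to 2.79, that of Esrrb from -1.18 to -1.06, that of Nr5a1 from -2.34 to -2.11 and that of Nr6a1 from 1.08 to 1.95. Each stayed past 2-fold in all of them.

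**Figure D5:**
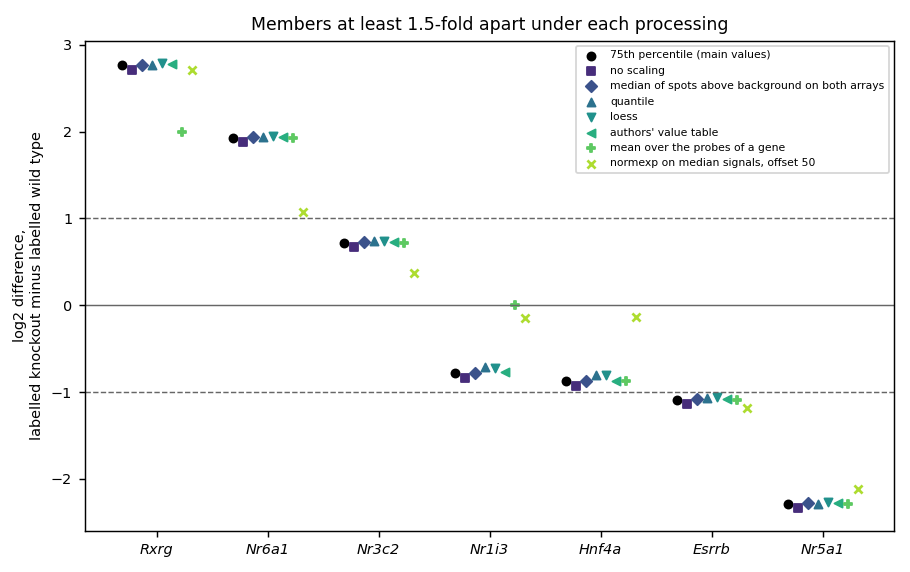
Log2 difference, labelled knockout minus labelled wild type, of the 7 members at least 1.5-fold apart under the main values and 7 other ways of processing; dashed lines mark 2-fold. Rxrg, Nr6a1, Esrrb and Nr5a1 keep outside the lines, while Nr3c2, Nr1i3 and Hnf4a stay inside and are nearer 0 under normexp (0.38, -0.15 and -0.13); the point of Nr1i3 at 0 stands for no bound when its probes are averaged.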

How the data were processed

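Total RNA from dissected retinas was amplified and labelled with Cy3, per the labels' protocols. The deposited signals are linear intensity values from Agilent Feature Extraction (11.5.1.1, protocol GE1_1105_Oct12), which had subtracted background, on a design of genome build mm9, per the file headers. The authors' deposited value table holds the same intensity values times a constant per array, whose rule the sources used here do not give. Deposited flags per spot give detection.

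Values are log2 processed signal minus the 75th percentile of 59305 non-control spots; outlier-flagged spots (163 on the knockout-labelled array, 119 on the wild-type-labelled array) were left out and spots of a probe averaged. No spot was saturated. Of 55677 probes, 28330 were named by transcript accession in a RefSeq table of GRCm38.p6. The brightest probe stood for a gene; a probe was above background when at least 50% of its spots were. A gene above background on 1 array only was given as a bound against the higher of the other array's lowest signal well above background (11.8 units on the knockout-labelled array, 13.7 on the wild-type-labelled array) and its own. The number of arrays, not depth, limits precision. All receptors above background are named; of the coregulator, ligand supply and target lists, those past 2-fold and the 2 highest and 2 lowest on both arrays. Marker genes named singly were chosen after their values were seen. Members and lists were chosen with earlier results of these data known. Counting was tested on simulated data. Alternatives used limma 3.58.1 in R 4.3.3 (normexp, offset 50; quantile; loess, span 0.4). Receptor protein sequences were not used here.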

Additional observations from a re-analysis of the deposited data

Results flagged for a closer look

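A signal outside the values used above came from Nr4a3, an immediate early orphan receptor that was above background on neither array. Of its 10 spots, 2 were left out by the software's outlier flag, and 1 of these read 53.1 units on the knockout-labelled array, where it was called above background, and 2.90 on the wild-type-labelled array. The 8 unflagged spots ran from 2.56 to 3.23 on the knockout-labelled array and from 2.92 to 3.80 on the wild-type-labelled array, and 0 of them were above background on either.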

How the results depend on the processing

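The counts of 2 higher and 2 lower members were the same under all 6 other normalizations and sources of values, with the mean over probes, and where both arrays had to be above background. With no filter on dim probes 3 were lower, Hnf4a being the addition. A 1.5-fold threshold gave 3 higher and 4 lower members, or 3 and 2 among those measured on both arrays. A 4-fold threshold gave 1 of each, that is 1 higher and 1 lower. The family median was -0.0520 with no scaling and between -0.02 and 0.03 otherwise. Of 287 recomputed values of 41 members, 48 moved by over the technical SD, 13 of them under normexp. Most of the 48 came with no scaling, which shifts every difference by the same amount, just over the smallest technical SD. In at least 1 setting 16 members, whose main differences were at most 0.25 in size, changed sign. For most of these 16, no scaling was among the settings that changed it. Against 252 higher and 218 lower of all named genes, normexp gave 120 and 45, genes above background on both arrays 160 and 94, no filter 580 and 672, 1.5-fold 473 and 511, and 4-fold 79 and 58. Normexp shrinks dim differences by construction. It used median signals, since no mean signal column was there to use. The median without the 4 called members, an alternative chosen after seeing the data, was 0.008. No paired analysis was possible because neither group has a replicate.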
